A study of Mus musculus with 16 samples.

Results

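The enzymes that make serine, pass its carbon to folate and carry homocysteine sulphur to cysteine were followed in 16 RNA-seq samples of bone marrow-derived mast cells (BMMCs). They are 10 of the 39179 genes in the count files. The list was chosen by name as a pathway after Cth and Phgdh had been seen lower in PEP-/- cells, so the genotype difference is the measured value behind the choice. It is therefore described here without a test, and tests are given for the treatments and for the dependence of the treatment responses on genotype. Phgdh, Psat1 and Psph make serine, Shmt1, Shmt2, Mthfd2, Mthfd1l and Aldh1l2 move its carbon through folate, and Cbs and Cth form the transsulfuration branch.

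Serine is built from the glycolytic intermediate 3-phosphoglycerate by PHGDH, PSAT1 and PSPH in turn. Serine hydroxymethyltransferase, SHMT1 in the cytosol and SHMT2 in mitochondria, splits serine into glycine and a carbon unit bound to tetrahydrofolate. In mitochondria MTHFD2 oxidizes this unit, and MTHFD1L releases it as formate for purine and thymidylate synthesis in the cytosol, while ALDH1L2 burns it to carbon dioxide. CBS joins serine to homocysteine, and CTH cleaves the product to cysteine, a precursor of glutathione. Serine and folate enzymes are known to be high in growing cells, and several of them are known targets of the transcription factor ATF4.

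PEP, the PEST-domain-enriched tyrosine phosphatase, is encoded by Ptpn22. BMMCs came from male C57BL/6 mice of 8 to 10 weeks, either PEP+/+ or PEP-/-, and had spent 4 weeks in a medium with stem cell factor and IL3. The IgE group was sensitized with 0.05 µg/ml IgE for 3 h, as the labels give it, and all other groups received the same IgE. The methods of the study state a higher IgE concentration than the labels, and which was used cannot be told from the files. The IgE DNP group was also activated with the antigen DNP at 200 ng/ml for 1 h, the IgE DEX group received the glucocorticoid dexamethasone (DEX) at 100 nM for 8 h, and the IgE DNP DEX group received both. Each of the 8 groups had 2 replicates, and no group lacked IgE. The study calls its replicates biological. The sources used here do not describe the deletion beyond the genotype, nor how many mice gave each culture, so p-values measure the spread between these samples.

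The reads counted on genes ran from 8612531 to 22143526 per sample. Ptpn22 itself, on chromosome 3 at 103859795 to 103912247 (plus strand, GRCm38), had 11.3 to 175 normalized counts (CPM, scaled to each library's TMM-normalized total) in the 8 PEP+/+ samples and 0.0 to 3.03 CPM in the 8 PEP-/- samples, so each library followed its genotype label. In PEP+/+ cells its 2 replicates had 15.9 and 11.3 CPM with IgE, 80.0 and 104 with IgE DNP, 66.5 and 71.6 with IgE DEX, and 160 and 175 with IgE DNP DEX. In PEP-/- cells the same groups had 0.0 and 0.0514, 1.39 and 3.03, 0.363 and 0.0, and 0.547 and 1.24 CPM. The mast cell label held. All 12 mast cell markers passed the filter, their summed level was 68000 to 115000 CPM in PEP+/+ and 74000 to 105000 CPM in PEP-/- samples, and Cpa3, a mast cell protease, led with a median of 41000 CPM. Markers of lymphocytes summed to at most 3.41 CPM and those of neutrophils to at most 2.37 CPM, with 7 of 8 neutrophil markers at a median of 0. Macrophage markers summed to 17.8 to 39.4 CPM in PEP+/+ and 31.2 to 57.3 CPM in PEP-/- samples, with C1qa, C1qb and Marco at a median of 0. The 3 basophil markers, led by Cd200r3, which mast cells also carry, summed to 270 to 795 and 228 to 882 CPM. Itga2b, which mast cells also carry, gave 2950 CPM of the erythroid and megakaryocyte list, in which Pf4 was at a median of 0.

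The promoters of the 3 members that fell with DEX in activated cells are shown because those genes moved together. The stretches come from RefSeq windows on GRCm38.p6, each reaching 250 bases before the transcript start, without bases annotated as untranslated region. Phgdh lies at chr3:98339991-98340219 and Mthfd2 at chr6:83317607-83317854, both on the minus strand, and Mthfd1l at chr10:3972825-3973074 on the plus strand. The Mthfd2 stretch lies inside the span that GENCODE gives the gene. Capitals mark CCAAT on either strand.
Phgdh: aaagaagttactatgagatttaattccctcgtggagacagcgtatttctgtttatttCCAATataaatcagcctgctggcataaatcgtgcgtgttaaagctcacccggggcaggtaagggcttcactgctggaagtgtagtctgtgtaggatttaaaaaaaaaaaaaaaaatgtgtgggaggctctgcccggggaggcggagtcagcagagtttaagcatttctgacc
Mthfd2: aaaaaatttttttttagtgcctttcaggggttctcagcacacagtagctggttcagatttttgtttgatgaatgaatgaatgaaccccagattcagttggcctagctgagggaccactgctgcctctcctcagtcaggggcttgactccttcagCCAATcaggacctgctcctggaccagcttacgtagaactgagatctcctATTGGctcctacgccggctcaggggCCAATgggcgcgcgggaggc
Mthfd1l: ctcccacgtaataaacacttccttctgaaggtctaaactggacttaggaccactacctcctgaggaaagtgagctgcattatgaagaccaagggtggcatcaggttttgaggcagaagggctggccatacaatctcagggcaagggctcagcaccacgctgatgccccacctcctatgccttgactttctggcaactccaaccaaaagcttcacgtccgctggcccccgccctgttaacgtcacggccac

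RefSeq windows were matched for 8 members, with 2 windows for Psat1. Cth and Aldh1l2 had none. The ATF4 response element core TGATGNAA, read on both strands, was in the windows of 0 of 8 members and in 3.97% of 32851 windows of all genes. The palindromic glucocorticoid response element was in 0 of 8 members and 0.475% of all windows. The E-box CACGTG was in the window of 1 member, Cbs, and in 7.15% of all windows. CCAAT, a motif added after the sequences were seen, was in the windows of 6 members, namely Phgdh, Psat1, Psph, Shmt1, Mthfd2 and Cbs, and in 37.4% of all windows. These are counts of letters in short windows and say nothing about binding.

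Of the 10 members, 8 had enough reads to be tested among 13305 genes. Cbs, the entry enzyme of transsulfuration (chromosome 17, 31608894 to 31637238, minus strand), had 1 read in all 16 samples, in a PEP+/+ IgE DEX sample. Aldh1l2 (chromosome 10, 83487450 to 83534140, minus strand) had 0 to 8 reads per sample, 31 in all PEP+/+ and 13 in all PEP-/- samples. Neither level allows a comparison at this depth. Aldh1l1, the cytosolic paralogue of Aldh1l2, was by contrast read at 11.4 to 30.8 CPM.

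Compared per kilobase of exon, Shmt2 and Mthfd2, which encode mitochondrial enzymes, had the highest medians. The median level over 16 samples was 10.7 CPM per kilobase for Shmt2, 6.2 for Mthfd2, 5.67 for Psat1 and 4.56 for Mthfd1l. It was 2.5 for Psph, 1.42 for Phgdh, which encodes the enzyme of the committed step of serine synthesis, 1.28 for Shmt1 and 0.106 for Cth. The ranges of neighbours overlapped all the way down this order, from Shmt2 and Mthfd2 to Shmt1 and Cth, whose highest sample of 0.777 CPM per kilobase was above the lowest Shmt1 sample of 0.756. The order of neighbours is therefore an order of medians only.

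**Figure D1:**
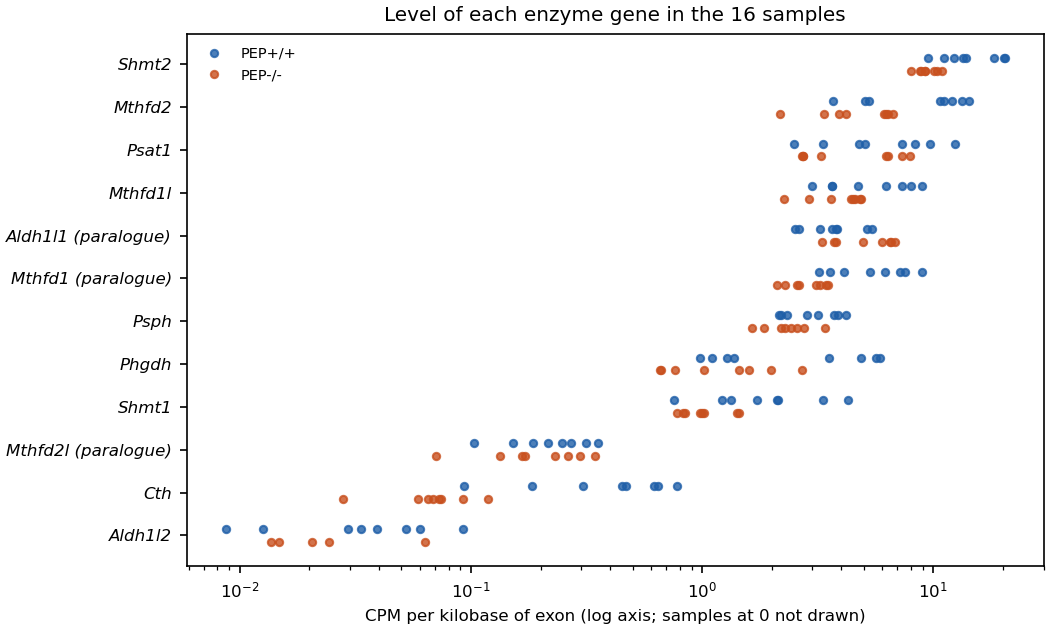
Level of each enzyme gene in CPM per kilobase of exon (log axis), with 3 paralogues for reference. There is 1 point per sample above 0, for 8 PEP+/+ and 8 PEP-/- samples. Cbs, with 1 read in all, is not drawn, nor are samples at 0, which occur for Aldh1l2 in PEP-/-. The medians of the members run from 10.7 (Shmt2) to 0.0224 (Aldh1l2), and for Cth 7 of 8 PEP-/- points lie below the lowest PEP+/+ point.

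The 2 genotypes were compared next, as a description. All 8 tested members had a lower mean in PEP-/- than in PEP+/+ BMMCs over the 4 treatments, with a median log2 fold change of -0.76 against 0.0243 over all tested genes, of which 46.0% were below 0. The differences ran from -0.35 for Psph to -2.56 for Cth. Of the 8 members, 5 were lower in PEP-/- in all 8 comparisons of samples with the same treatment and replicate number, namely Phgdh, Psph, Shmt2, Mthfd2 and Cth, and 7.67% of all tested genes had this pattern. For 0 members did all PEP-/- samples lie below all PEP+/+ samples, a pattern of 0.323% of tested genes. Since the list came from this contrast, nothing is read from these shares. In bulk samples, fewer cells of a kind and less RNA per cell cannot be told apart.

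Cth (chromosome 3, 157894248 to 157925077, minus strand), which encodes the cysteine-forming enzyme, had the largest fold difference among the members and the fewest reads of those tested. In PEP+/+ cells it had 0.514 and 2.17 CPM with IgE, 0.851 and 1.8 with IgE DNP, 1.3 and 1.72 with IgE DEX, and 0.26 and 1.25 with IgE DNP DEX. In PEP-/- cells the same groups had 0.182 and 0.257, 0.164 and 0.33, 0.207 and 0.203, and 0.0782 and 0.19 CPM. The samples of PEP-/- were low in every treatment, and 1 PEP+/+ sample, IgE DNP DEX replicate 1, reached down among them. These levels rest on 2 to 41 reads per PEP+/+ sample and 1 to 6 per PEP-/- sample, so Cth passed the filter through its PEP+/+ samples and the log2 fold change of -2.56 ± 0.45 (SE) depends on very few reads.

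Phgdh (chromosome 3, 98313170 to 98339990, minus strand) had 8.82 and 12.1 CPM in PEP+/+ cells with IgE, 14.1 and 14.6 with IgE DNP, 3.19 and 2.44 with IgE DEX, and 2.73 and 3.44 with IgE DNP DEX. In PEP-/- cells it had 4.92 and 3.6 CPM with IgE, 6.73 and 3.96 with IgE DNP, 2.54 and 1.63 with IgE DEX, and 1.64 and 1.9 with IgE DNP DEX. Its 2 genotypes did not overlap with IgE, IgE DNP or IgE DNP DEX, and with IgE DEX their ranges overlapped. The share of all tested genes apart in this way within a treatment is not given here. The log2 genotype difference of Phgdh was -1.30 ± 0.34 (SE) with IgE, -1.43 ± 0.34 with IgE DNP, -0.41 ± 0.36 with IgE DEX and -0.81 ± 0.37 with IgE DNP DEX. Phgdh lies 5.52 Mb from Ptpn22 on the same chromosome. Cth lies 53.98 Mb from Ptpn22. A pseudogene, Phgdh-ps1, is annotated, and reads shared with such a copy were counted on neither gene.

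The 4 tested folate enzymes had genotype estimates further below 0 in the groups without DEX than in those with it. Mthfd2 (chromosome 6, 83305691 to 83325908, minus strand) had log2 differences of -0.98 ± 0.38 (SE) with IgE, -1.24 ± 0.38 with IgE DNP, -0.68 ± 0.38 with IgE DEX and -0.65 ± 0.39 with IgE DNP DEX. Shmt2 (chromosome 10, 127517123 to 127522444, minus strand) had -0.69 ± 0.22, -1.13 ± 0.22, -0.33 ± 0.22 and -0.34 ± 0.22 in the same order. Shmt1 (chromosome 11, 60788104 to 60811718, minus strand) had -1.17 ± 0.45, -1.55 ± 0.45, -0.68 ± 0.45 and -0.16 ± 0.47, so that the genotype difference with both agents was within its error. Mthfd1l (chromosome 10, 3973118 to 4167081, plus strand) had -0.70 ± 0.29 with IgE, -0.71 ± 0.29 with IgE DNP, and -0.17 ± 0.29 in both groups with DEX. Over the 8 members the median genotype difference was -0.84 with IgE, -1.19 with IgE DNP, -0.37 with IgE DEX and -0.45 with IgE DNP DEX. Whether these differences between treatments exceed the replicate spread is tested with the interactions further on.

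The average log2 genotype difference of the other serine synthesis genes was -0.42 ± 0.39 (SE) for Psat1 and -0.35 ± 0.16 for Psph, and -0.42 ± 0.09 and -0.34 ± 0.10 with the replicate block. Psat1 (chromosome 19, 15904678 to 15947337, minus strand), the aminotransferase of the pathway, ran from 10.6 to 52.7 CPM in PEP+/+ (median 26.4) and from 11.5 to 33.9 CPM in PEP-/- samples (median 20.3). Psph (chromosome 5, 129765558 to 129787449, minus strand), the phosphatase that releases serine, ran from 9.37 to 18.2 CPM in PEP+/+ (median 13.0) and from 7.14 to 14.8 CPM in PEP-/- samples (median 10.2). The genotypes overlapped widely for both. Psat1 differed more between the replicates than between the genotypes, since replicate 1 was higher than replicate 2 in 8 of 8 groups, by 1.28 ± 0.25 (SD) on the log2 scale. Among the other members the mean log2 difference of replicate 1 from replicate 2 ran from 0.51 for Mthfd2 to -0.80 for Cth. Some members overlap a gene on the other strand (Psat1 with Gm3329, Psph with Cct6a, Shmt1 with Smcr8 and Gm24945, Shmt2 with Ndufa4l2, Aldh1l2 with D10Wsu102e), and the strand setting of the counting is not given in the sources used here, so their reads could be shared. Mthfd1l overlaps Gm16074 and Gm25515 on its own strand, where reads could be shared whatever the setting.

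**Figure D2:**
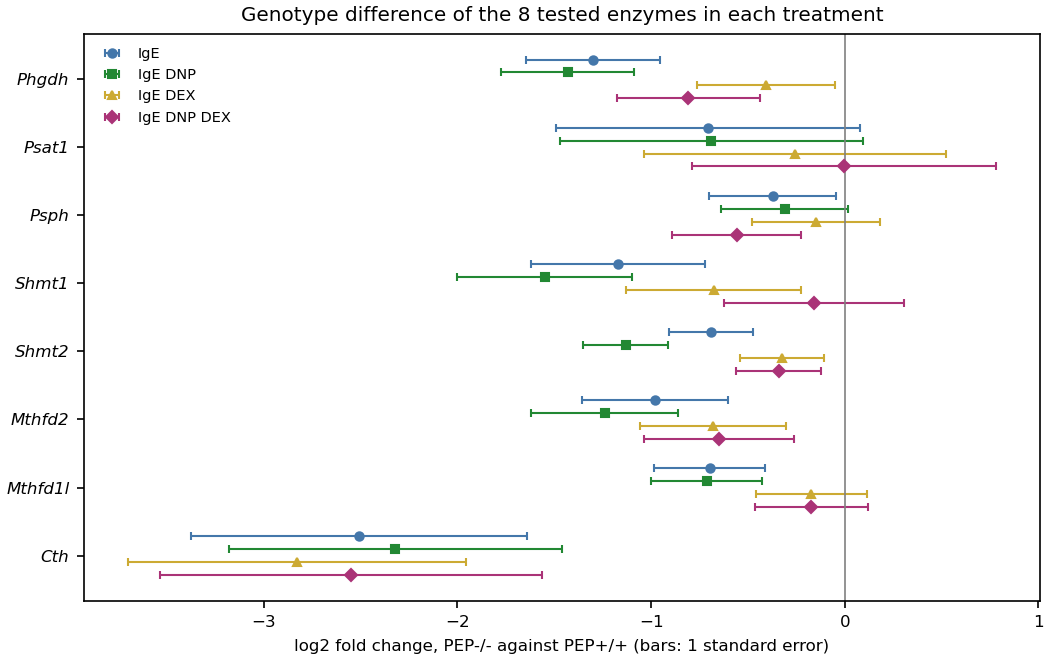
Log2 fold change of PEP-/- against PEP+/+ (horizontal axis) for the 8 tested members in each of the 4 treatments, with bars of 1 standard error of the edgeR fit (2 replicates per group). For 6 of the 8 members both values without DEX are further below 0 than both values with DEX, the exceptions being Psph and Cth.

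Paralogues of the members were read beside them. Mthfd1, the cytosolic enzyme that uses the formate, had 14.2 to 39.5 CPM in PEP+/+ and 9.31 to 15.5 CPM in PEP-/- samples, a log2 difference of -0.95 ± 0.12 (SE), and was lower in PEP-/- in 8 of 8 matched comparisons. Aldh1l1, which removes the folate-bound carbon in the cytosol, went the other way, with 11.4 to 24.6 CPM in PEP+/+ and 14.9 to 30.8 CPM in PEP-/- samples, a log2 difference of 0.44 ± 0.13, higher in 8 of 8. Mthfd2l, a mitochondrial relative of Mthfd2, had 0.687 to 2.35 and 0.469 to 2.28 CPM and was lower in 4 of 8.

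DEX was compared with no DEX in cells given IgE alone, averaged over the genotypes, to ask how the glucocorticoid acted on unactivated cells. Phgdh fell 2.72-fold, and the other 7 members did not pass the test. The log2 fold change of Phgdh was -1.45 ± 0.25 (SE), with an edgeR quasi-likelihood adjusted p of 0.00351, and it was lower with DEX in 4 of 4 matched pairs. Thus 1 of 8 members was called lower where 3.98% of all tested genes were. The other members had log2 fold changes of -0.61 (Mthfd1l, adjusted p = 0.0973), -0.64 (Shmt1), -0.50 (Psph), -0.48 (Mthfd2), -0.29 (Shmt2), -0.22 (Psat1) and 0.03 (Cth), a median over all 8 of -0.49 against 0.00106 over all tested genes. With the replicate number as a block, which the pairing check allowed, 6 of 8 members were called lower where 13.8% of all genes were, adding Mthfd1l (adjusted p = 0.00485), Mthfd2 (0.00912), Psph (0.0148), Shmt1 (0.032) and Shmt2 (0.0494).

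Phgdh, Mthfd2 and Mthfd1l fell with DEX in activated cells, in the comparison of IgE DNP DEX with IgE DNP, which asks how the glucocorticoid acted on cells activated with antigen. Phgdh fell 3.72-fold (log2 -1.89 ± 0.26 SE, edgeR adjusted p = 0.000713), Mthfd2 2.34-fold (-1.23 ± 0.27, 0.0148) and Mthfd1l 1.9-fold (-0.93 ± 0.21, 0.0145), each lower in 4 of 4 matched pairs. These were 3 of 8 members, where 4.99% of all tested genes were called lower, and the median over the 8 was -0.87 against -0.0102 over all genes. With the replicate block 5 of 8 were called, where 17.4% of all genes were, adding Shmt1 (-0.91, adjusted p = 0.0054) and Shmt2 (-0.43, 0.00421).

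The values behind these changes were as follows. Mthfd2, the mitochondrial dehydrogenase, had 49.9 and 37.5 CPM with IgE DNP and 17.7 and 12.8 with IgE DNP DEX in PEP+/+ cells, and 22.3 and 14.7 against 11.7 and 7.61 in PEP-/- cells. The 2 treatments did not overlap within either genotype, and Phgdh showed the same in the values given above. The share of all tested genes with treatments apart in this way is not given here, so the separation only describes the values. Mthfd1l, the mitochondrial formate-releasing enzyme, had 39.7 and 27.8 CPM with IgE DNP and 13.3 and 16.1 with IgE DNP DEX in PEP+/+ cells, and 21.7 and 19.6 against 16 and 10.1 in PEP-/- cells, again without overlap. The calls of Mthfd2 and Mthfd1l were each kept in 12 of 16 fits that left out a sample. Mthfd2 was not called (adjusted p up to 0.0625) without PEP+/+ IgE DNP replicate 1, PEP-/- IgE DNP replicate 1, PEP+/+ IgE DNP DEX replicate 2 or PEP-/- IgE DNP DEX replicate 2, and Mthfd1l (up to 0.0607) without replicate 1 of PEP+/+ IgE DNP, PEP+/+ IgE DNP DEX or PEP-/- IgE DNP, or replicate 2 of PEP-/- IgE DNP DEX. Mthfd1l was also not called when only the 4 groups compared were fitted (0.0565). Phgdh was called in 16 of 16 fits with a sample left out in both DEX comparisons.

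**Figure D3:**
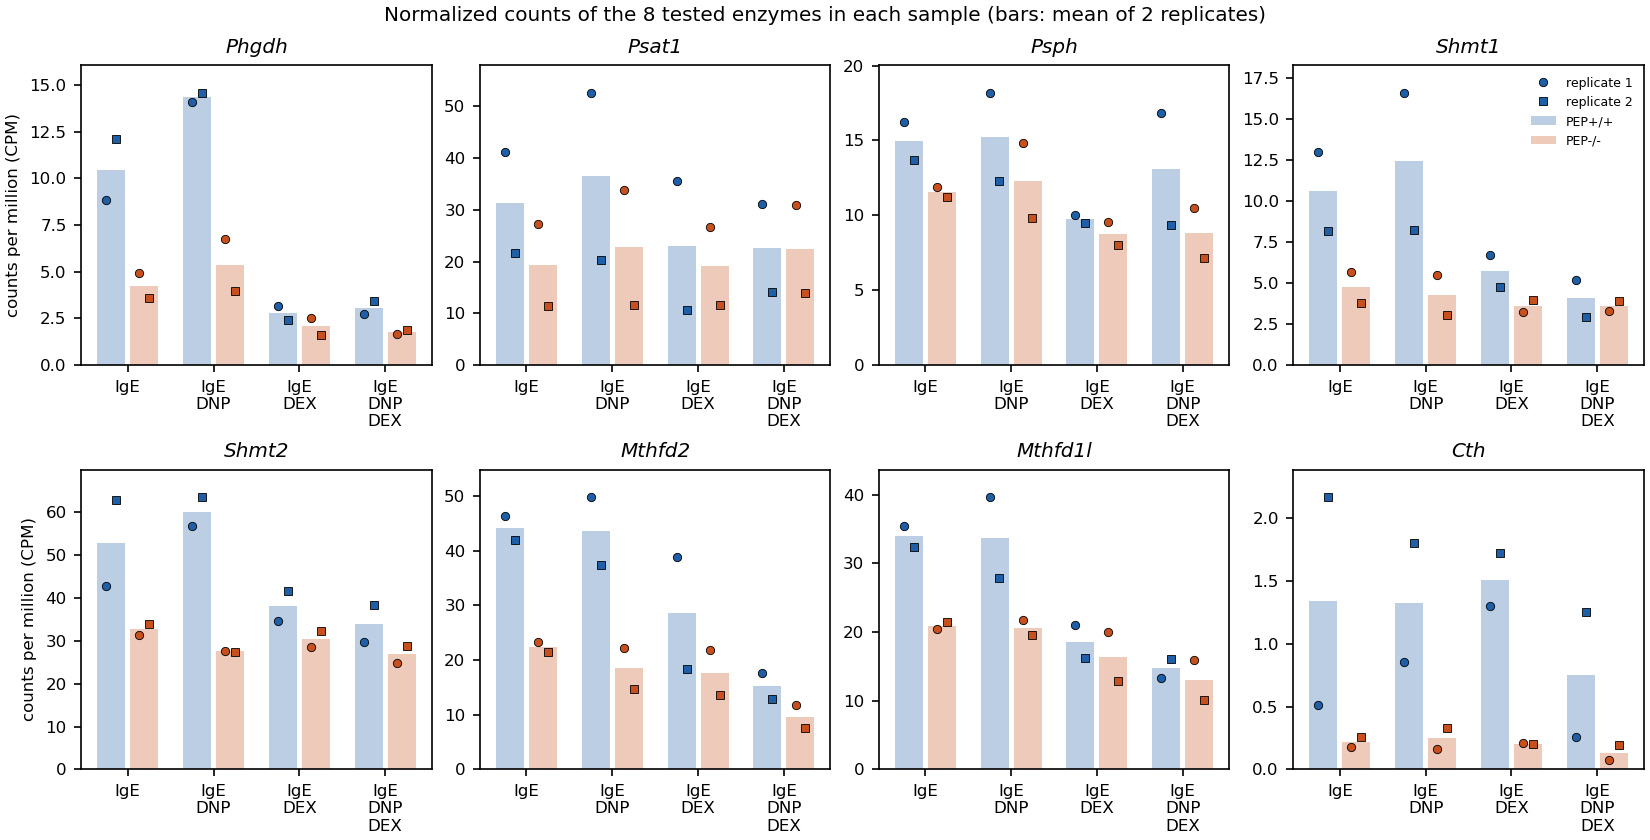
Normalized counts (CPM) of the 8 tested members in each of the 16 samples; bars are means of 2 replicates, circles replicate 1 and squares replicate 2. Phgdh is at or above 3.6 CPM in all 8 samples without DEX and at or below 3.44 CPM in all 8 samples with DEX. These 2 limits come from different genotypes, and the share of all tested genes apart in this way is not given here.

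The serine hydroxymethyltransferase genes did not pass this test. Shmt2, the mitochondrial form, had 56.7 and 63.6 CPM with IgE DNP and 29.6 and 38.3 with IgE DNP DEX in PEP+/+ cells, but 27.6 and 27.4 against 24.9 and 28.7 in PEP-/- cells. Shmt1, the cytosolic form, had 16.6 and 8.21 against 5.21 and 2.94 CPM in PEP+/+ cells, and 5.5 and 3.03 against 3.28 and 3.9 in PEP-/- cells. The treatments were apart in PEP+/+ cells and overlapped in PEP-/- cells for both genes. The share of all tested genes with this pattern is not given here. The average over genotypes was -0.43 ± 0.15 (SE) for Shmt2 (adjusted p = 0.108) and -0.94 ± 0.32 for Shmt1 (0.0964). Both passed with the block, and Shmt1 also without a filter on low counts (0.0467).

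Within PEP+/+ cells alone, DEX lowered Phgdh with IgE (log2 -1.89 ± 0.35 SE, edgeR adjusted p = 0.0125, 1 of 8 members where 0.932% of genes were called lower) and with IgE DNP (-2.20 ± 0.36, 0.00601, 1 of 8 where 1.05% were). The next members with IgE DNP were Shmt1 at -1.63 (adjusted p = 0.0928), Mthfd2 at -1.52 (0.0593) and Mthfd1l at -1.20 (0.052). With the replicate block, 6 of 8 members were called lower in each of these comparisons, where 7.8% and 9.76% of genes were, and they were Phgdh, Psat1, Shmt1, Shmt2, Mthfd2 and Mthfd1l both times. Without PEP+/+ IgE DEX replicate 1 or 2, or PEP+/+ IgE replicate 2, the call of Phgdh with IgE was lost (adjusted p up to 0.136), as it was with only the groups compared (0.162), and without PEP+/+ IgE DNP DEX replicate 1 that with IgE DNP was (0.075). DESeq2 also called Shmt1 (0.0195), Shmt2 (0.013), Mthfd2 (0.00595) and Mthfd1l (0.00467) lower with IgE DNP, and without a filter on low counts edgeR also called Shmt1 (0.0159), Mthfd2 (0.000533) and Mthfd1l (0.0205). The shares of all genes that these fits called lower are not given here, so these calls cannot be set beside them.

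Within PEP-/- cells the same comparisons gave smaller estimates for most members. With IgE, Phgdh changed by -1.0 ± 0.36 (SE, log2, adjusted p = 0.211), 0 of 8 members were called where 0.985% of genes were called lower by edgeR, and 1 member had an unadjusted p under 0.05. The block left 0 called, where 7.03% of genes were, with Phgdh at an adjusted p of 0.0599. With IgE DNP, Phgdh fell by 1.58 on the log2 scale (SE 0.36, adjusted p = 0.0397), 1 of 8 where 1.19% were called, and the block called 3 of 8, Phgdh, Mthfd2 and Mthfd1l, where 9.33% were. That call of Phgdh held in 3 of 16 fits with a sample left out, with an adjusted p of up to 0.276, and was lost with only the groups compared (0.31). Shmt2 at -0.04 ± 0.22, Psat1 at -0.01 ± 0.78 and Shmt1 at -0.24 ± 0.46 were near 0 in PEP-/- cells with IgE DNP.

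Whether the DEX response depended on genotype was tested directly. No member passed, and by edgeR 0.0% of all tested genes were called in any of the 3 genotype interactions, of DNP, of DEX with IgE, and of DEX with IgE DNP. At an unadjusted p under 0.05 there were 30, 40 and 95 genes by edgeR, and DESeq2 called 0 in each, with 22, 34 and 93 at an unadjusted p under 0.05. The largest member estimate was that of Shmt1 for DEX with IgE DNP, at 1.39 ± 0.65 (SE, log2 difference of PEP-/- from PEP+/+ in the response), and Shmt2 at 0.79 ± 0.31 was the 1 member with an unadjusted p under 0.05 in this fit (0.0261, adjusted p = 1.0). For DEX with IgE DNP, DESeq2 put 2 members under an unadjusted 0.05 (Shmt1 and Shmt2) and the replicate block 3 (Shmt1, Shmt2 and Psat1), and the block also put 2 there for DEX with IgE (Psat1 and Phgdh) and 1 for DNP (Shmt2), while 0 members passed adjustment in any of these fits. With IgE DNP 6 of 8 members, and with IgE 7 of 8, had an estimate above 0. The response in PEP-/- cells was then less negative, or for Psat1 with IgE 0.000112. The share of all tested genes with an estimate above 0 is not given here, and the members share the same samples. These data do not show that the genotypes differed in this response, nor that they did not.

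**Figure D4:**
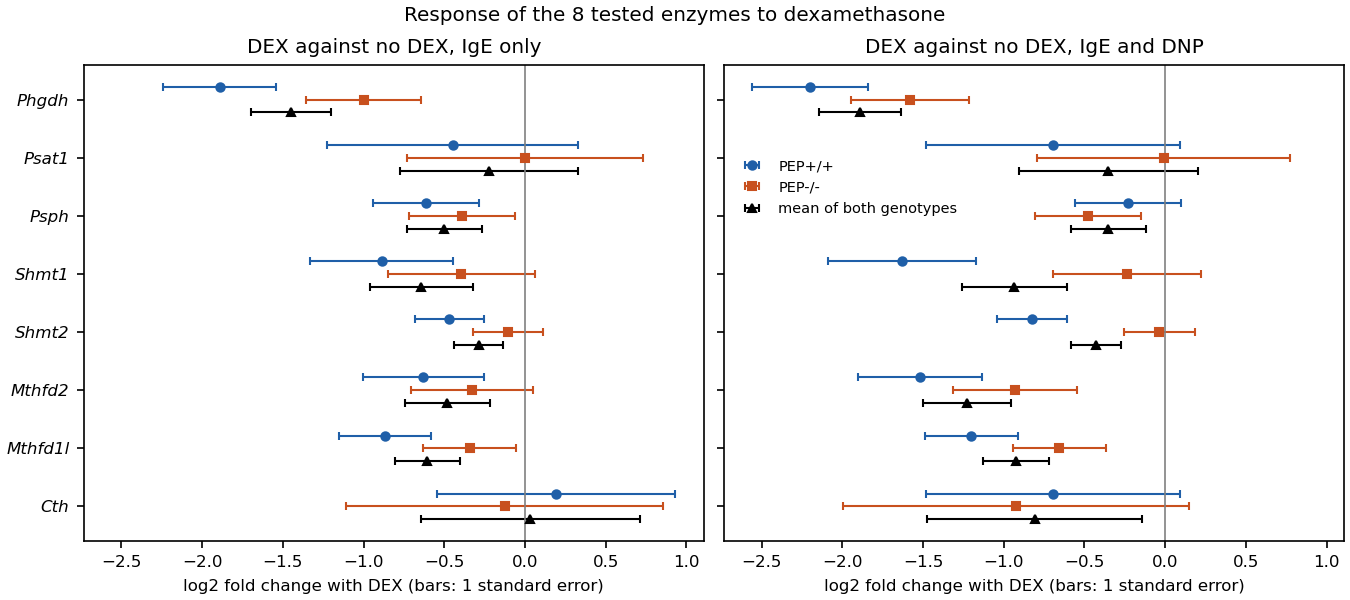
Log2 fold change with DEX (horizontal axis) of the 8 tested members, in IgE cells (left) and in IgE DNP cells (right), for PEP+/+, PEP-/- and their mean, with bars of 1 standard error of the edgeR fit. Phgdh is furthest below 0 in both panels, and with IgE DNP all 8 means lie below 0.

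No member passed the test of antigen alone. DNP with IgE against IgE alone called 0 of 8 members where 16.7% of all tested genes were called by edgeR in either direction, and 0 had an unadjusted p under 0.05, by DESeq2 and with the block as well. The averages over genotypes ran from -0.15 ± 0.27 (SE, log2) for Mthfd2 to 0.39 ± 0.24 for Phgdh, with a median of 0.05. Phgdh was higher with DNP in 4 of 4 matched pairs (adjusted p = 0.343).

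In DEX-treated cells, DNP was compared with no DNP in the same way, and 0 of 8 members passed where 12.6% of genes were called in either direction, with 1 member at an unadjusted p under 0.05. That member was Mthfd2, at -0.89 ± 0.27 (SE, log2, edgeR adjusted p = 0.0531), lower in 4 of 4 matched pairs. With the block it was called at -0.86 (adjusted p = 0.000407), 1 of 8 where 19.2% of genes were lower. DESeq2 also called Mthfd2 (0.0186), among 2297 of 13305 tested genes that it called in either direction. In PEP+/+ cells Mthfd2 had 38.8 and 18.4 CPM with IgE DEX, and 17.7 and 12.8 with IgE DNP DEX, and in PEP-/- cells 21.8 and 13.6 against 11.7 and 7.61 CPM. The treatments did not overlap within either genotype, a pattern whose share among all tested genes is not given here. The dependence of the DEX response on DNP was 0 of 8 members called, where 0.331% of genes were by edgeR, with 0 members at an unadjusted p under 0.05, and DESeq2 also called 0 members. With the replicate block 1 member, Mthfd2, had an unadjusted p under 0.05 (log2 difference -0.68, edgeR adjusted p = 0.137).

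The wider pathway, 62 tested genes of the folate and methionine cycles, glycine cleavage and serine use, cysteine and glutathione synthesis, and the amino acid response, was read beside the members. DEX with IgE called 4 of the 62 lower and 5 higher, and DEX with IgE DNP 4 lower and 3 higher, with medians of -0.09 and -0.12 on the log2 scale. With the replicate block these counts were 15 and 8, and 14 and 11. DNP called 3 lower and 9 higher with IgE, and 5 lower and 6 higher with IgE DEX (7 and 16 each time with the block). Of all tested genes, edgeR called 3.98% lower and 5.4% higher for DEX with IgE, and 4.99% and 5.67% for DEX with IgE DNP. For DNP the shares were 7.58% and 9.07% with IgE, and 5.42% and 7.19% with IgE DEX. With the block they were, in the same order, 13.8% and 12.9%, 17.4% and 15.9%, 19.3% and 18.6%, and 19.2% and 18.4%. The counts of single lists below stand beside the same shares.

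Of the 17 tested folate genes outside the list, DEX with IgE called 1 lower, Slc46a1, a folate transporter, at -2.16 ± 0.39 (SE, log2, edgeR adjusted p = 0.00445). Its mean went from 0.972 to 0.213 CPM, a low level, with 144 reads in all samples together. With IgE DNP, DEX called 2 lower, Mthfd1 (-0.81 ± 0.17, 0.0115) and Aldh1l1 (-0.74 ± 0.19, 0.0262). Both paralogues therefore fell with DEX in activated cells although they differed from each other in direction between the genotypes. Of 10 tested genes of the methionine cycle, which regenerates the methyl donor S-adenosylmethionine, DEX called 0 in either state and DNP called 2 higher with IgE, and 1 lower and 2 higher with IgE DEX.

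Among 11 tested genes of glycine cleavage and serine use, DNP raised Gldc, the glycine decarboxylase, from a mean of 0.0356 to 0.729 CPM with IgE (4.72 ± 1.04 SE, log2, adjusted p = 0.0107), a low level throughout. Gcsh, its lipoyl carrier protein, rose with DNP in DEX-treated cells from 7.82 to 16.7 CPM (1.12 ± 0.15, 0.000731). DNP called 2 of these 11 higher with IgE and 1 higher with IgE DEX, while DEX called 1 lower with IgE and 0 with IgE DNP. Of 12 tested genes of cysteine supply and glutathione, DEX with IgE called 2 lower and 2 higher. Gss, glutathione synthetase, fell from 62.1 to 17.5 CPM (-1.82 ± 0.16, 3.33e-05), and from 102 to 23.0 CPM with DNP (-2.13 ± 0.16, 1.11e-05). Gclm, a subunit of the enzyme before it, fell from 74.1 to 43.4 CPM (-0.77 ± 0.17, 0.0149), while Slc7a11, the cystine transporter, rose from 5.21 to 14.6 CPM (1.46 ± 0.32, 0.0128) and its partner Slc3a2 rose with DNP present from 817 to 1940 CPM (1.25 ± 0.12, 8.73e-05).

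The 12 genes of the amino acid response, which ATF4 leads, did not share a direction. Atf4 rose with DNP from 183 to 465 CPM with IgE (1.35 ± 0.18 SE, log2, edgeR adjusted p = 0.000389) and from 181 to 375 CPM with IgE DEX (1.05 ± 0.18, 0.00292). The part of Atf4 in the results on the members was not tested. Asns, asparagine synthetase, fell with DEX in activated cells from 9.11 to 4.44 CPM (-0.82 ± 0.22, 0.0332). Ddit4, a stress gene that glucocorticoids are known to induce, rose with DEX from 142 to 585 CPM with IgE (2.03 ± 0.13, 2.41e-06) and from 25.8 to 225 CPM with IgE DNP (3.15 ± 0.14, 2.04e-07), and fell with DNP, with log2 fold changes of -2.47 (IgE, adjusted p = 5.02e-07) and -1.36 (IgE DEX, 6.11e-05). Sesn2 fell with DNP from 33.1 to 14.3 CPM (-1.21 ± 0.14, 0.000155) and from 30.3 to 10.5 CPM (-1.53 ± 0.14, 6.41e-05). Cebpb rose with DNP from 2.0 to 9.46 CPM (2.22 ± 0.61, 0.0284) and with DEX to 9.56 CPM (2.21 ± 0.61, 0.0424). Eif4ebp1 rose with DEX in activated cells from 22.2 to 42.5 CPM (0.93 ± 0.16, 0.00353), and Vldlr rose with DNP in DEX-treated cells from 0.279 to 1.14 CPM (1.87 ± 0.45, 0.0209).

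Genes of dividing cells moved in the direction of the members with DEX and in the genotype average. The summed level of 12 such genes, among them Mki67, Top2a and the Mcm helicase genes, was 2070 and 1430 CPM in PEP+/+ IgE, 2310 and 1310 in IgE DNP, 1310 and 968 in IgE DEX, and 1260 and 1000 in IgE DNP DEX. In PEP-/- cells the same groups had 1450 and 1080, 1580 and 1110, 1290 and 923, and 1120 and 898 CPM. All 12 had negative estimates with DEX in both comparisons, with medians of -0.43 with IgE and -0.72 with IgE DNP on the log2 scale. With IgE 0 were called, and with IgE DNP 1 was called lower, where 3.98% and 4.99% of all tested genes were called lower. With the block 7 and 8 were called lower, where 13.8% and 17.4% of all tested genes were. In the genotype average 10 of 12 were below 0, with a median of -0.48. For DNP with IgE, 10 of 12 were below 0 (median -0.155), against 3 of 8 members (median 0.05). For DNP with IgE DEX, 10 of 12 were below 0 (median -0.26), against 6 of 8 members (median -0.21). The part of the genes of dividing cells in the results on the members was not tested. Basophil markers were also lower with DEX, at 228 to 479 CPM in the 8 samples with DEX and 539 to 882 CPM in the 8 without. Macrophage markers were higher in PEP-/- in 8 of 8 matched pairs, and with DEX in activated cells in 4 of 4, for example 21.8 to 31.0 CPM in replicate 1 of PEP+/+ and 41.9 to 50.4 CPM in replicate 1 of PEP-/-. The summed mast cell markers were also higher with DEX in activated cells in 4 of 4 matched pairs and higher in PEP-/- in 6 of 8. The part of these marker genes in the results on the members was not tested.

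How the members varied together was described over all 16 samples. Pearson r of log2 CPM was highest between Mthfd2 and Mthfd1l (0.912), Phgdh and Mthfd1l (0.884), Shmt1 and Mthfd2 (0.847), and Shmt2 and Cth (0.832), and lowest between Psat1 and Cth (-0.06). These 16 points share the genotypes, treatments and replicate sets, so r describes these samples and no p is given. Outside the list, genes most like Phgdh were Gcat (0.947), Afg3l1 (0.927), Haus7 (0.922) and Lig1 (0.921), over 16 samples. Gcat encodes a glycine-forming enzyme of threonine breakdown and Lig1 a DNA ligase. Those most like Cth were Mettl1 (0.947), Nop2 (0.947), Clptm1l (0.944), Prmt7 (0.933) and Polr3e (0.932).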

How the data were processed

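Poly(A) RNA of 16 BMMC samples was sequenced with a stranded kit. The authors deposited whole-number counts per gene for each sample, made per the labels with TopHat2 on GRCm38 and HTSeq. Reads aligned to several places were counted on no gene, which leaves genes with near-identical copies uncertain, and the 5 rows that name no gene (29.1% to 49.6% of each file) were left out. Of 39179 gene identifiers, 37693 (96.21%) were named from GENCODE M21. The members and gene lists were chosen with earlier results of these data known.

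Counts were tested with edgeR 4.0.16 in R 4.3.3 (TMM, filterByExpr with a minimum count of 10, a mean for each of the 8 groups, quasi-likelihood test with 8 residual degrees of freedom). p-values were adjusted by Benjamini-Hochberg over all 13305 genes tested and called under 0.05. CPM used the TMM library sizes. Comparisons averaged over the genotypes weight both equally. Scripts were tested on simulated data. Alternatives were the replicate block, DESeq2 1.42.0 and its size factors, other filters, a minimum log2 change of 1, only the groups compared, and each sample left out.

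Titles numbered 1 to 8 were taken as replicate 1 and titles with letters as replicate 2. Deviations of samples with the same replicate number from their group means correlated at r of 0.453 to 0.799 (mean 0.672) in all 28 pairs of groups, so the numbers were taken to pair the samples. With the block the common biological coefficient of variation was 0.133, and 0.312 without it. Reads in no annotated feature were 6.54% to 10.8% in the numbered and 12.26% to 16.5% in the lettered libraries. These are shares of the reads in no feature and on genes together, without the other rows that name no gene. The fit in the text has no block unless it is named, as the methods name none.

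All 10 members, the 3 paralogues, at most 3 genes per direction with the largest fold change among those called in the wider lists, and the 5 genes most like Phgdh and Cth were named, except for a few genes that are not reported here.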

Additional observations from a re-analysis of the deposited data

How the results depend on the processing

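With the replicate block the members called were 6 for DEX without DNP, 5 for DEX with DNP and 1 for DNP with DEX, against 1, 3 and 0 without it. The share of all tested genes called lower rose from 3.98% to 13.8%, from 4.99% to 17.4% and from 5.42% to 19.2% in these comparisons. Counts within a genotype are calls summed over the 8 treatment effects, so a member can count more than once. The block gave 17 such calls, against 3 without it, and changed no other call of a member. DESeq2 called 2 for DEX without DNP (Phgdh and Mthfd1l), 1 for DNP with DEX (Mthfd2) and 7 within a genotype. For DNP with DEX it called 2297 of 13305 tested genes, against 1678 by edgeR. Its shares of all genes for the DEX comparisons, and the shares with other filters, are not given here. Without a filter on low counts 4 were called for DEX with DNP, with Shmt1 gained (adjusted p = 0.0467), 1 (Mthfd2) for DNP with DEX and 6 within a genotype, and with at least 10 counts in every sample, which drops Cth, 1 (Mthfd2) and 5. With only the groups compared, 1 was called within a genotype, and Mthfd1l lost its call for DEX with DNP (adjusted p = 0.0565). A minimum log2 change of 1 left 2 members for DEX with DNP, Phgdh and Mthfd2. Leaving out a sample gave 1 to 3 members for DEX with DNP, 0 to 1 for DNP with DEX and 1 to 3 within a genotype. Among the 44 tabulated member values, which leave out, for example, those of most members with DNP, it turned the sign of 4 that were not called. The log2 fold change of Psat1 with DEX ran from -0.78 to 0.15 and with DEX and DNP from -0.68 to 0.15. That of Cth with DEX ran from -0.31 to 0.71, and that of Shmt1 with DEX and DNP in PEP-/- from -0.62 to 0.25. The genotype average stayed below 0 for 8 of 8 members in these fits. With DESeq2 size factors, every tested value among the 44 tabulated member values stayed on its side of the threshold. The genotype averages among them, which were not tested, moved by less than the SD within groups. Causes were not tested. Interactions of all 8 groups could not be fitted on fewer groups. The 2 replicates per group and the reads of Cth, Aldh1l2 and Cbs limit what could be detected.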
